A study of Papio anubis with 6 samples.

Results

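Proerythroblasts, the earliest cells of the red lineage that can be told apart by shape, were sorted from baboon (Papio anubis) bone marrow as CD105+CD34-CD117+bRBC+ cells. RN-1, an inhibitor of the histone demethylase LSD1 (KDM1A), had been given to baboons on a long-term schedule (0.25 mg/kg/d, 5 d/wk, more than 265 d; 2 samples) or a short-term schedule (0.25 mg/kg/d, 3 d; 2 samples), and 2 samples came from untreated controls. The short-term and control samples were from the same 2 baboons, and the long-term samples were from 2 other baboons. The 10 genes described here encode proteins of the nuclear envelope: the nesprins SYNE1 and SYNE2, the SUN proteins SUN1 and SUN2, the lamins LMNA, LMNB1 and LMNB2, and the inner membrane proteins LBR, EMD and TMPO. SYNE2 was chosen by its fold change in the study's own comparisons of these samples, and the other 9 were added for their function. What SYNE2 showed between the groups is therefore a description. The other genes were also chosen with earlier results of these data known. All 10 were found by symbol among the 39023 listed genes.

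The nuclear envelope is a double membrane lined on its inner face by a meshwork of lamins. SUN proteins cross the inner membrane and bind, between the membranes, the tails of nesprins that cross the outer membrane. This bridge, the LINC complex (linker of nucleoskeleton and cytoskeleton), ties the nucleus to actin, microtubules and their motors. Red cell precursors shrink and condense the nucleus as they mature, and in mammals they finally expel it. LBR and the lamins also hold chromatin at the nuclear edge.

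The deposited values were 1 mean per gene in each of 2 tables, as log2 CPM, where CPM is the read count of a gene scaled to a fixed library size. The long-term table averaged the 2 long-term and 2 control libraries, and the short-term table averaged the 2 short-term and the same 2 control libraries. The kit reads 1 fragment near the 3′ end of each transcript, so CPM needed no correction for length. The tables differed in the kind of mean. The long-term mean was close to an arithmetic one, with an effective library size of 3634191 reads on average. The short-term mean was a mean of 4 log2 values, and was precise enough to give back the whole number of reads in each of its 4 libraries for 7 of the 10 genes. These libraries are called A to D, from the largest effective size (5270053 reads) to the smallest (3372644 reads). No label in the file says which of A to D are controls and which are short-term samples. Reads of MS4A1, a B cell gene given below, do not allow A as a control if a control has the same CPM in both tables. The file does not settle the other libraries, so no library was given to a group, and no mean ± SD or test was made.

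The sorted population was checked against marker genes. All 10 erythroid markers were present, from TAL1, a transcription factor of early blood cells (5.93 log2 CPM in the long-term table), to ALAS2, the first enzyme of erythroid heme synthesis (10.48). The median difference between the tables for these 10 was 0.01 log2. CD34, the defining markers CD3D, CD3E and CD79A of lymphocytes, and MPO and ELANE of neutrophils were listed without a value. Other markers had values. CD2, a T cell and NK cell surface protein, was the highest of them at 8.04 log2 CPM in the long-term table and 7.43 log2 CPM in the short-term table. ENPP3 and HDC of mast cells and basophils had 3.73 and 3.24 log2 CPM in the long-term table. In the short-term table they had -1.07 and -2.50 log2 CPM. CD163 and C1QC of macrophages had 1.97 and 1.51 log2 CPM in the long-term table and -2.53 and -1.16 in the short-term table. The platelet glycoprotein genes GP9 and ITGA2B of megakaryocytes had 1.18 and 0.06 log2 CPM in the long-term table. They had no value in the short-term table. ENPP3, HDC, CD163 and C1QC thus differed between the tables far more than the erythroid markers, at low levels where the kind of mean matters most. CD2, at a high level, was 0.60 log2 higher in the long-term table, against at most 0.12 log2 for the erythroid markers.

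All 10 envelope genes had a mean in both tables. Their long-term table means ran from 0.95 log2 CPM (EMD) to 9.73 log2 CPM (LBR), with a median of 6.62 log2 CPM. The plot of mean levels shows that LBR, LMNB1, TMPO and LMNA were the 4 highest in both tables, and that SYNE2 and SUN1 had the widest gaps between the tables.

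**Figure D1:**
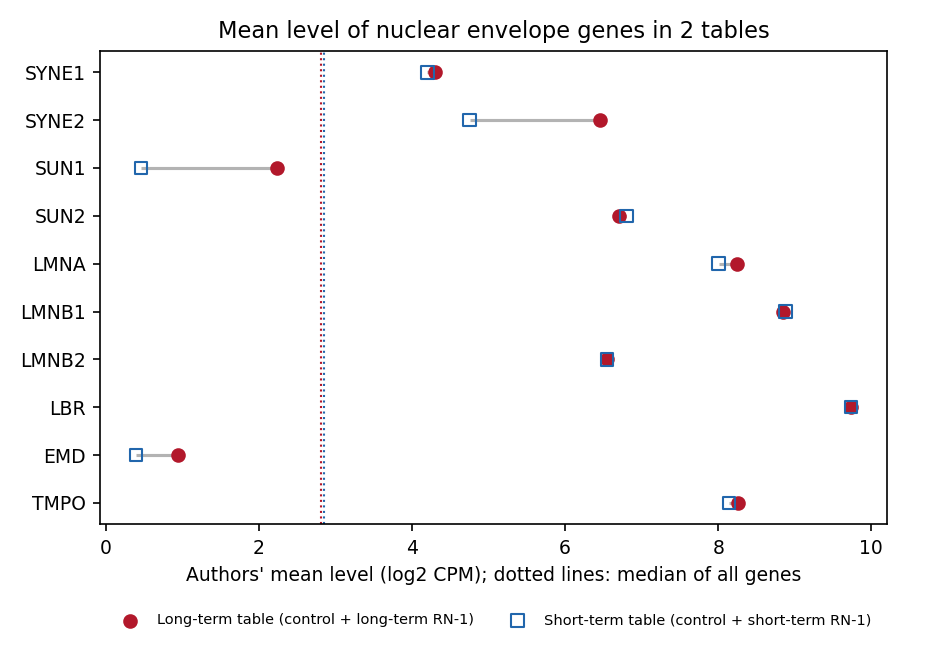
Mean level of the 10 genes in log2 CPM, with 1 point for the long-term table (long-term and control libraries) and 1 for the short-term table (short-term and control libraries); each point is the authors' mean, without an error, and the dotted lines are the medians of all genes in each table. SYNE2 (6.46 and 4.75) and SUN1 (2.24 and 0.46) lay higher in the long-term table, and the points of LMNB2, LBR and LMNB1 nearly coincide.

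SYNE2 encodes nesprin-2, a giant protein of the outer nuclear membrane that binds actin and, through kinesin and dynein, microtubules. Its mean was 6.46 log2 CPM in the long-term table and 4.75 log2 CPM in the short-term table, a difference of 1.71 log2. In CPM these means were 88.1 in the long-term table and 27.0 in the short-term table. SYNE2 thus stood above 87.1% of genes in the long-term table and above 68.1% in the short-term table. Of the 8 envelope genes whose average over both tables was at least 2 log2 CPM, SYNE2 was the 1 whose tables differed by at least 1 log2, and 0 were lower in the long-term table by as much. Over all 9419 genes at that level, 4.98% were higher in the long-term table by at least 1 log2 and 0.0425% were lower by at least 1 log2. Since the choice of SYNE2 used the same samples, nothing is read from its place among them.

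The 4 libraries of the short-term table held 253, 283, 40 and 60 SYNE2 reads in A, B, C and D. After scaling to library size these were 48.0, 65.5, 9.35 and 17.8 CPM. Libraries A and B were high and C and D low, with a 7.01-fold range. The 4 libraries of the long-term table held an estimated 1273 SYNE2 reads (95% Poisson interval 1204 to 1345, counting error only), and their arithmetic mean of 87.6 CPM was above each of the 4 short-term table libraries. Because the same 2 controls stand in both tables, the mean of the 2 long-term libraries can be bounded for every possible choice of the controls among A to D. These bounds are arithmetic and leave out counting error. They also include choices with A as a control, which the MS4A1 reads do not allow if controls have the same CPM in both tables. The long-term mean lay between 118 and 162 CPM, against 13.6 to 56.7 CPM for the control mean. The ratio of the long-term mean to the control mean was between 2.09 and 11.9, and that to the short-term mean was between 2.85 and 8.73. SYNE2 was thus higher in the long-term libraries than in the controls whichever libraries were the controls.

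SYNE1 encodes nesprin-1, the closest relative of nesprin-2, with the same kind of actin-binding start and membrane-spanning tail. Its means were 4.30 log2 CPM in the long-term table and 4.20 log2 CPM in the short-term table, a difference of 0.11 log2. The reads in A, B, C and D numbered 215, 76, 94 and 24, or 40.8, 17.6, 22.0 and 7.12 CPM. Library A was the highest for SYNE1 and library B for SYNE2. SYNE2 exceeded SYNE1 in A, B and D but not in C, where SYNE1 had 22.0 CPM and SYNE2 had 9.35 CPM. The arithmetic mean of SYNE1 was 19.2 CPM in the long-term table, within the range of the 4 libraries, and 21.9 CPM in the short-term table. Over every choice of controls, A included, its ratio of long-term to control mean ran from 0.225 to 2.11, so the direction against the controls was not fixed. Against the short-term mean the ratio was 0.571 to 0.831. Its side of 1 is set by the table means alone, since the shared controls cancel in that difference.

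**Figure D2:**
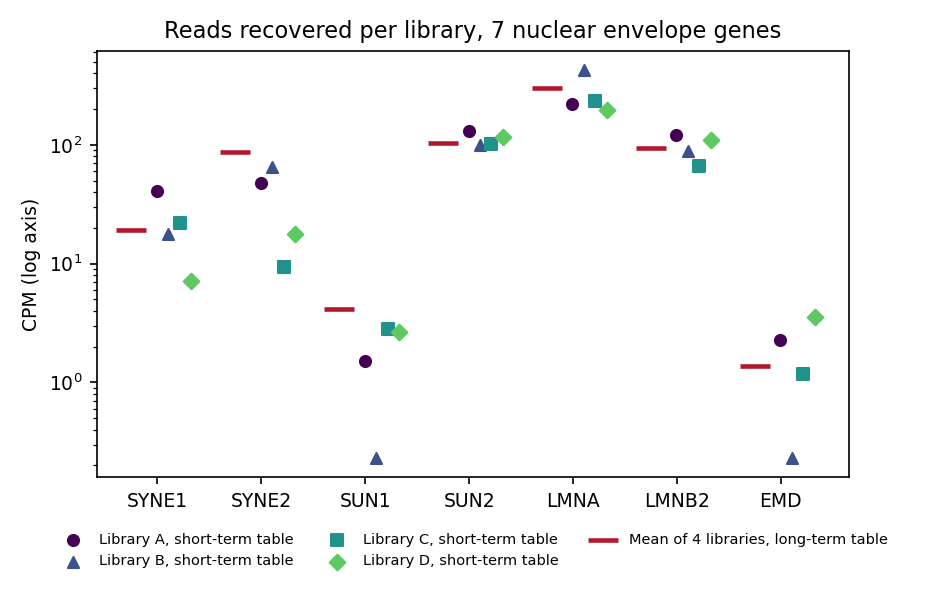
Level in CPM (log axis) of the 7 genes with recovered reads: the arithmetic mean of the long-term table on the left of each gene, and libraries A to D of the short-term table, which carry no group label, beside it. The long-term table mean lies above all 4 libraries for SYNE2 and SUN1, and within their range for SYNE1, SUN2, LMNA, LMNB2 and EMD.

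SUN1 and SUN2 encode the inner membrane partners of the nesprins. SUN1 was much the scarcer of the pair, at 2.24 log2 CPM in the long-term table and 0.46 log2 CPM in the short-term table. It had 8, 1, 12 and 9 reads in A, B, C and D, or 1.52, 0.231, 2.80 and 2.67 CPM, so B, where SYNE2 was highest, was the lowest for SUN1. The sum of 30 reads has a 95% Poisson interval of 20.2 to 42.8. An estimated 60.7 SUN1 reads (interval 46.4 to 78.0) were in the long-term table, whose arithmetic mean of 4.18 CPM was above each of A to D. The long-term mean of SUN1 lay between 5.62 and 7.48 CPM, against 0.875 to 2.74 CPM for the control mean. This gives a ratio of 2.05 to 8.55 to the controls and 2.73 to 6.42 to the short-term mean. SUN1 was therefore higher in the long-term libraries than in the controls whichever libraries were the controls, at a level where these bounds leave out the counting error of few reads.

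SUN2 had 6.70 log2 CPM in the long-term table and 6.80 log2 CPM in the short-term table. Its reads in A, B, C and D numbered 692, 430, 436 and 391, or 131, 99.5, 102 and 116 CPM. This was the most even of the 7 genes, with a 1.32-fold range. The ratio of the long-term mean to the control mean was 0.670 to 1.05 and spanned 1. Against the short-term mean it was 0.822 to 0.855, which restates the arithmetic means of 103 CPM in the long-term table and 112 CPM in the short-term table.

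Among the lamins, LMNB1, a B-type lamin that stays attached to the membrane, was the highest at 8.84 log2 CPM in the long-term table and 8.88 log2 CPM in the short-term table. LMNA, whose transcript gives the A-type lamins A and C, had 8.24 log2 CPM in the long-term table and 8.0 log2 CPM in the short-term table. LMNB2, the other B-type lamin, had 6.55 log2 CPM in both. The B-type lamins thus differed by at most 0.03 log2 between the tables, and LMNA was 0.24 log2 higher in the long-term table. Under the estimate of reads, the long-term table rested on 6663 reads of LMNB1, 4396 of LMNA and 1354 of LMNB2.

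LMNA had 1167, 1838, 1005 and 662 reads in A, B, C and D, or 221, 425, 235 and 196 CPM. Library B stood above the other 3, which were close together. Within the 3-fold range searched for LMNA, 0.16 sets of counts would give its mean by chance, so its reads and bounds are less sure than those of the other 6 genes. The ratio of the long-term to the control mean of LMNA was 0.832 to 1.90, and that to the short-term mean was 1.20 to 1.32. LMNB2 had 633, 381, 282 and 371 reads, or 120, 88.2, 65.9 and 110 CPM, with C the lowest. Its ratio was 0.619 to 1.42 to the control mean and 0.925 to 0.950 to the short-term mean. For neither lamin was the direction against the controls fixed. The reads of LMNB1 were above the limit set for the search, which was not run for it, so it has no bound.

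LBR, the lamin B receptor, which binds B-type lamins and heterochromatin and also has sterol reductase activity, was the highest of the 10 genes. Its mean was 9.73 log2 CPM in both tables, or 848 CPM in the long-term table and 850 CPM in the short-term table, above 99.3% of genes in each. TMPO, which encodes the LAP2 proteins that bind lamins and chromatin, had 8.26 log2 CPM in the long-term table and 8.14 log2 CPM in the short-term table. EMD, which encodes emerin, a LEM-domain protein that binds lamin A, was the lowest in both. Neither LBR nor TMPO has recovered reads: those of LBR were above the limit set for the search, and 3 sets of counts gave the mean of TMPO.

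EMD had 0.95 log2 CPM in the long-term table and 0.40 log2 CPM in the short-term table. Its reads in A, B, C and D numbered 12, 1, 5 and 12, against an estimated 20.04 reads (interval 12.2 to 30.9) in the 4 libraries of the long-term table. EMD and SUN1 both had 1 read in B, and both had 30 reads in the 4 libraries. The logarithmic mean is pulled down by such a library, and the arithmetic mean of EMD was 1.38 CPM in the long-term table and 1.81 CPM in the short-term table. EMD was thus 0.55 log2 higher in the long-term table by the deposited means, while the log2 ratio of the arithmetic means was -0.39. Over every choice of controls, A included, its ratio of long-term to control mean ran from 0 to 2.94. The lower end is a negative value set to 0: with A and D as the controls, their summed CPM exceeds the sum over all 4 libraries of the long-term table. With the prior count left in, it was 0.322.

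**Figure D3:**
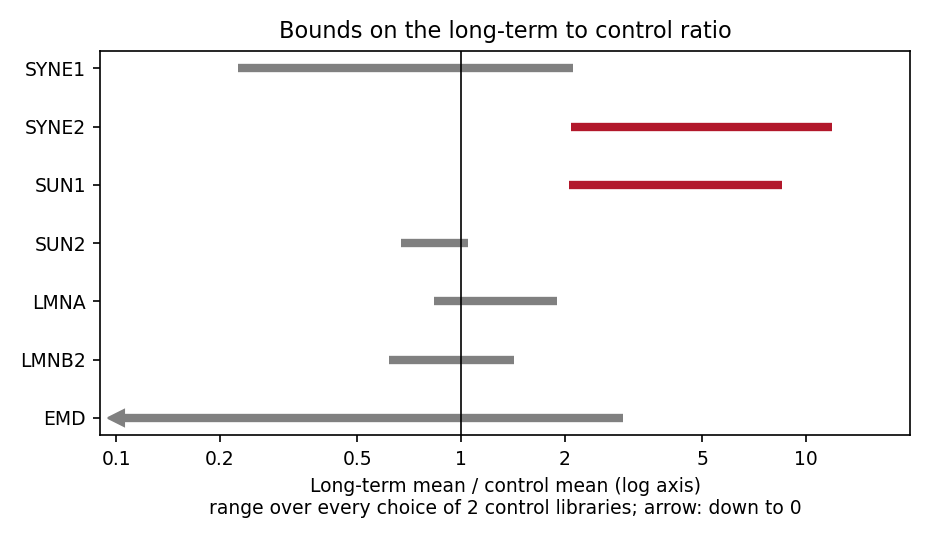
Ratio of the mean of the 2 long-term libraries to the mean of the 2 controls (log axis), over every choice of the controls among libraries A to D, choices with A included; the bars are ranges over these choices and not errors, and the arrow of EMD runs to 0. SYNE2 (2.09 to 11.9) and SUN1 (2.05 to 8.55) lie above a ratio of 1 against the controls, and the other 5 genes span 1.

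Of the 7 genes with bounds, 2 (SYNE2 and SUN1) had a long-term mean above the control mean whichever libraries were the controls, and 0 had one below. SYNE2 was chosen by its change in these samples, so nothing is read from its part in this count, which leaves SUN1. SUN1 was added for its function, but also with earlier results of these data known. Its average of 1.35 log2 CPM was below the minimum of 2, and it had 30 reads in A to D. The count of genes above the controls whichever libraries were the controls is therefore only a description. Over the 5694 genes with a short-term table mean from 0 to 5 log2 CPM and recovered reads, 14.3% were above the controls in this way and 6.6% were below. SYNE1, SYNE2, SUN1 and EMD are among these genes, and SUN2, LMNA and LMNB2 are above that range of levels. The lowest possible ratio was smaller than that of SUN1 for 98.6% of these genes. That rank is over all levels from 0 to 5 log2 CPM, while SUN1 lay at 0.46 log2 CPM with few reads. For this bound, no rank among genes of its own level was made, so SUN1 is not called unusual.

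The ratio of the arithmetic means of the tables gives each gene 1 value that needs no choice of controls. In log2 it was 1.32 for SYNE2, 1.21 for SUN1, -0.19 for SYNE1 and -0.39 for EMD, beside a median of 0.02 (5th to 95th percentile -0.76 to 0.74) over the 5694 genes. The value of SYNE2 is a description, since its choice used the same long-term samples. Of the 847 genes with 0 to 1 log2 CPM, 42 had a larger ratio than SUN1, where the ratios spread more widely. SYNE1 had a smaller ratio than 1231 of the 1672 genes with 4 to 5 log2 CPM in the short-term table. SUN2, LMNA and LMNB2 had ratios of -0.12, 0.17 and -0.04.

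**Figure D4:**
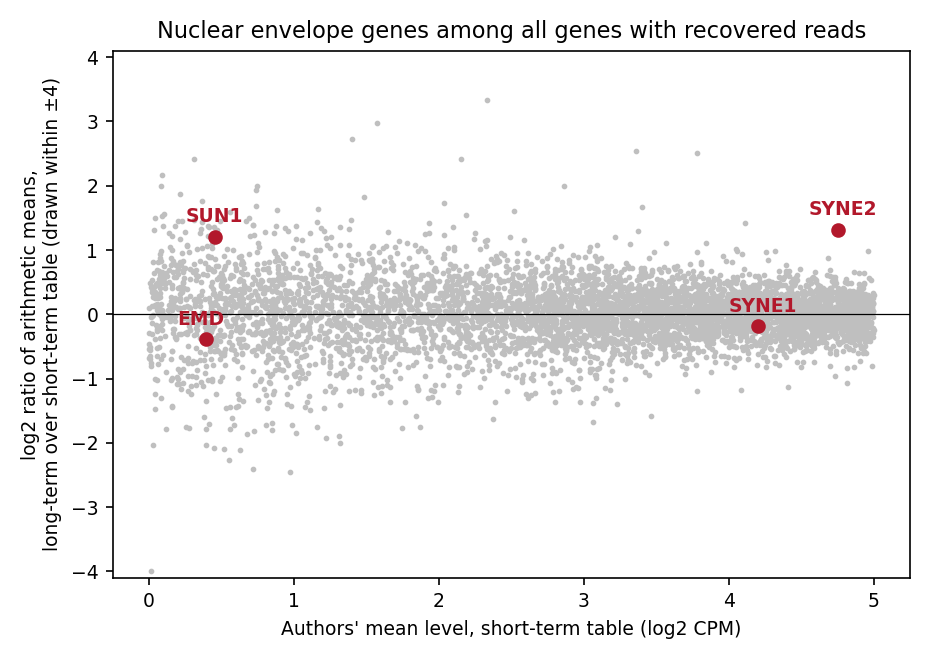
The log2 ratio of the arithmetic means, long-term over short-term table, against the short-term table mean in log2 CPM; each dot is 1 of the 5694 genes with recovered reads, and values are drawn within 4 above or below 0. SYNE2, chosen by its change in these samples, lies at 1.32, SUN1 (1.21) lies among the widely spread genes of few reads, and SYNE1 (-0.19) and EMD (-0.39) lie below the median of 0.02.

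An uneven spread over libraries A to D was common at these levels. The ratio of the highest to the lowest library had a median of 3.68 over the 5694 genes. For it, a library with no reads was given the level of a single read in the largest library. It was 5.73 for SYNE1, 7.01 for SYNE2, 12.1 for SUN1 and 15.4 for EMD, each above that median and below the 95th percentile of 61.0. SUN2, LMNB2 and LMNA, with 1.32, 1.82 and 2.17, were more even, at far higher read numbers. Markers of other cells were also uneven. The 2 measured macrophage genes, CD163 and C1QC, had 50, 10, 0 and 0 reads in A, B, C and D, HDC of mast cells and basophils had 26, 0, 0 and 0, and MS4A1 of B cells had 5, 0, 0 and 0. In the long-term table the macrophage list summed to an estimated 87.6 reads (4 of 5 genes) and the mast cell and basophil list to 314 reads (2 of 4 genes, HDC and ENPP3), with 0 reads of MS4A1. The part of these cells in the values of SYNE2 and SUN1 was not tested. In bulk samples, fewer cells of a type and less RNA per cell cannot be told apart.

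At the minimum level, the rest of the envelope differed little between the tables. Of the 19 other envelope proteins found, 12 were at the minimum average of 2 log2 CPM and 0 of these differed by 1 log2, with a median difference of 0.06 log2 (range -0.13 to 0.31). The highest was BANF1, which bridges DNA and LEM-domain proteins, at 7.91 log2 CPM in the long-term table, and the lowest was SYNE4, an epithelial nesprin, at -0.69 log2 CPM. Below the minimum, TOR1AIP1 (LAP1, an inner membrane protein) and SYNE3 (nesprin-3) were 3.88 and 1.76 log2 higher in the long-term table by the deposited means. SYNE4, with an estimated 1.01 reads in that table, was 2.84 log2 higher, and TMEM43 differed by -0.08 log2. The deposited means differ in kind, and a library with 0 reads pulls the logarithmic one down. Over all genes with an average from 0 to 2 log2 CPM, the median difference was 1.55 log2. All 5 lamin processing enzymes were measured, from ICMT (4.36 log2 CPM), which methylates the lamin tail, to ZMPSTE24 (5.25 log2 CPM), the protease that matures prelamin A, and 0 differed by 1 log2. The median over all 9419 genes was 0.09 log2, so these lists lay near it.

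Of the 28 nuclear pore genes found, 27 reached the minimum and 0 differed by 1 log2, with NUP93, a scaffold nucleoporin, the highest (8.76 log2 CPM) and RAE1, an mRNA export factor, the lowest (2.94 log2 CPM). The 10 cytoskeletal partners of the LINC complex, which include motor subunits, ran from NDE1 (3.45 log2 CPM) to the dynein intermediate chain DYNC1I2 (8.31 log2 CPM), and 0 of 10 differed by 1 log2. Among 14 genes of nuclear condensation and enucleation at the minimum, 0 did so, and their median difference was 0.07 log2. Below the minimum, where the kind of mean matters most, VIM and RAC2 of that list were 4.14 and 0.94 log2 higher in the long-term table. RAC1, a GTPase that acts on actin, was the highest of that list at 8.67 log2 CPM and RAC2, its blood cell relative, the lowest at 1.68 log2 CPM. The medians of these 5 lists were between 0.04 and 0.07 log2, as the plot by list shows.

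**Figure D5:**
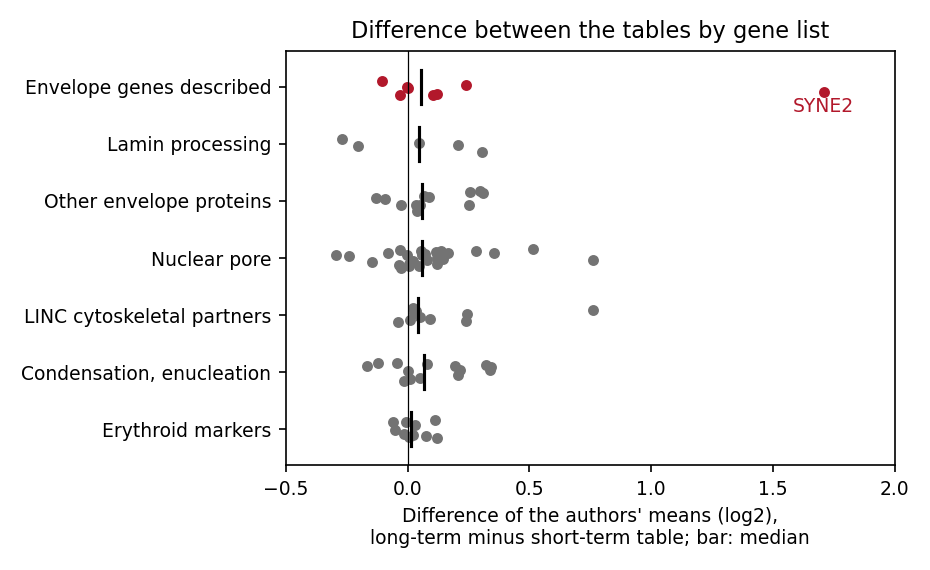
Difference of the table means in log2, long-term minus short-term table, for the genes of each list with an average of at least 2 log2 CPM; each point is 1 gene and each bar a median. SYNE2 (1.71), which was chosen by its change in these samples, is the one point past 1 log2, and the medians lie between 0.01 (erythroid markers) and 0.07 (condensation and enucleation).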

How the data were processed

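RNA was sequenced with a strand-specific 3′ kit in 6 samples of sorted cells. Reads were aligned by the authors with BWA MEM (genome Panu_2.0), assigned to genes with featureCounts and compared with edgeR. For these tools, the sources used here give no version. The authors deposited mean log2 CPM values in 2 comparison tables of 39023 genes, 17942 (long-term) and 16355 (short-term) with a value. Their columns of fold changes, p-values, q-values and pathway enrichment were not used. The 10 members and all gene lists were chosen with earlier results of these data known.

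With Python 3.11.15, numpy 2.4.6, scipy 1.17.1 and mpmath 1.4.1, effective library sizes were read from genes with 1 read, and reads per library from the short-term mean (prior count 0.25, tolerance 4e-15 log2). Of 5957 genes with a mean from 0 to 5, 95.6% gave exactly 1 set of counts. The search was tested on simulated data with low base levels, below those of SYNE1, SYNE2, SUN2, LMNA and LMNB2 in the short-term table. The test therefore did not cover the levels of these genes. For LMNA, sets within a 3-fold range were searched. In the long-term table, the prior count of 2 was taken off to estimate reads. Of 4954 genes with 1 to 19 estimated reads, 69.0% were within 0.1 of a whole number. Bounds had been planned on linear means of both tables. Since the short-term mean is a mean of logarithms, they were made on recovered reads, for 7 members. They assume that a control has the same CPM in both tables. Named list genes are the highest and lowest of each list by long-term table mean and any past 1 log2 at the minimum. The differences given for list genes below the minimum are outside this rule and were added after the values were seen. Intervals cover counting error only.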

Additional observations from a re-analysis of the deposited data

How the results depend on the processing

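Of the 8 genes at the minimum average of 2 log2 CPM, 1 (SYNE2) differed by at least 1 log2 between the tables. The count became 2 with a minimum of 0 log2 CPM and 2 with no minimum, as SUN1 entered. It remained 1 at a fold of 0.5 log2, with the long-term table shifted to a median difference of 0, and with arithmetic means (chosen after seeing the data). The count of genes above the controls whichever libraries were the controls was 2 with the table shifted and 2 with the prior count left in. The lowest ratio of long-term to control mean of SYNE2 was then 1.90 and 2.11, and that of SUN1 1.86 and 2.45. Bounds were not run for LMNB1, LBR and TMPO. No paired analysis was possible because the tables hold means and no labelled library. The same 2 animals gave control and short-term samples, and 2 samples per group limit every statement. In the long-term group, neither RN-1 exposure nor its length can be told apart from animal, since no baboon gave both a long-term and a control sample. This limit also holds for SYNE2 and SUN1, whose long-term means were above the control means.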

Other observations

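Some genes outside the 10 had reads in some of the libraries A to D and 0 reads in at least 1. They were chosen after their values were seen, and are below the minimum average of 2 log2 CPM. TOR1AIP1, which encodes the inner membrane protein LAP1, had an estimated 124 reads in the 4 libraries of the long-term table and 32, 0, 30 and 0 reads in A, B, C and D of the short-term table. SYNE3, which encodes nesprin-3, had an estimated 71.7 reads in the long-term table and 35, 15, 21 and 0 reads in A to D. VIM, which encodes vimentin, the intermediate filament protein of many immature and non-erythroid cells, had an estimated 232 reads in the long-term table and 249, 0, 1 and 3 reads in A to D. Libraries with 0 or few reads pull down the logarithmic means of TOR1AIP1, SYNE3 and VIM. The 3.88, 1.76 and 4.14 log2 between their deposited means therefore overstate the differences in reads. The 4 SYNE2 values lay in separate pairs, 48.0 and 65.5 CPM in A and B, and 9.35 and 17.8 CPM in C and D, while those of SYNE1 in the same order were 40.8, 17.6, 22.0 and 7.12 CPM. Which of these libraries share an animal or a treatment is not given in the sources used here.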
